A study of Mus musculus with 6 samples.

Results

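The Rab GTPases are the largest family of small GTP-binding switches that direct membrane traffic. Their genes were followed here as every array gene whose symbol is Rab with a number and at most 1 further letter, with Rab38 left out. That rule gave 58 genes of the 19057 with a single symbol on the array, and 44 of them had a reading bright enough to test, among 10273 tested genes. RNA came from sciatic nerves of mice at postnatal day 14, on 3 arrays of mutants and 3 of control littermates. Mutants are labelled P0 Cre Dicer "F or N", a term left unexplained: P0 Cre is a driver active in the Schwann cell lineage, and Dicer is the enzyme that trims microRNA precursors. No alleles are given for the littermates, each label names female and male, and pooling of animals is not stated. The p-values therefore reflect variation among 3 samples a group, part of which may be technical.

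A Rab protein sits on a membrane in its GTP form and recruits effectors (tethers, motors and sorting proteins), then is switched off and lifted back into the cytosol. Exchange factors switch it on, GTPase-activating proteins switch it off, GDP dissociation inhibitors carry it, and a geranylgeranyl transferase adds the lipids that hold it in the membrane. Different Rabs mark different compartments, so together they map the routes by which a cell such as a myelinating Schwann cell moves membrane and its proteins. In whole nerve, fewer cells of a type and less RNA per cell cannot be told apart.

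Values are the deposited normalized signals, on a log2-like scale running from 7.96 to 15.91, and every difference is mutant minus control on that scale. A gene was called when the limma adjusted p (Benjamini-Hochberg over all tested probes) was under 0.05, and each gene is represented by its brightest tested probe unless stated. Correlations between arrays were 0.992 to 0.995 among controls, 0.973 to 0.993 among mutants and 0.912 to 0.942 between the groups. Mutant replicate 1 stood apart: among the 44 tested Rab genes it was the mutant array farthest from the others in 26 (59.1%), and among all tested genes in 53.7%. Dicer1 itself was read at 9.28, 9.10 and 9.13 in mutants and 9.29, 9.17 and 9.13 in controls by its brightest probe, which was not called, and a dimmer probe fell by 0.20 (SE 0.063, limma adjusted p = 0.0458). Where these probes lie relative to the deleted part is not known, so they do not check the labels. Of the Schwann lineage markers tested, Sox10 was at 13.98 in mutants and 13.94 in controls and was not called, while S100b fell by 1.19. Skeletal muscle markers varied between arrays, their mean level running from 9.62 to 11.43 in mutants and from 11.26 to 12.58 in controls, and Acta1, Ckm, Tnnt3 and Des were not called. Fibroblast and perineurial markers had a mean level of 13.35 to 13.66 in mutants and 13.10 to 13.19 in controls, with 2 of 6 called higher. Of 7 macrophage markers 2 were called lower (Cd14 and Cd163), as was 1 of 4 endothelial markers (Cldn5), while 3 adipocyte markers were not called. The part of these cells in the results below was not tested.

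In the mutant nerves the Rab genes moved in both directions, and most of the moves were small. Of the 44 tested genes, 7 rose, 11 fell and 26 were not called, with a median difference of 0.02. The share called, 40.9%, lay beside 39.6% of all tested genes (22% higher and 17.6% lower), so the count alone does not set the family apart. The median size of a difference was 0.21 for Rab genes and 0.201 for all tested genes. Over all tested genes that size rose with brightness, so it is also given by range of brightness further below. Rab31 was the single member past the 2-fold rule of the study's design, a difference of at least 1, which 5.57% of all tested genes passed (2.64% higher and 2.93% lower). The mutant arrays lay all above or all below the controls in 29 of the 44 genes, against 55.2% of all tested genes (29.7% with mutants above and 25.5% below).

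**Figure D1:**
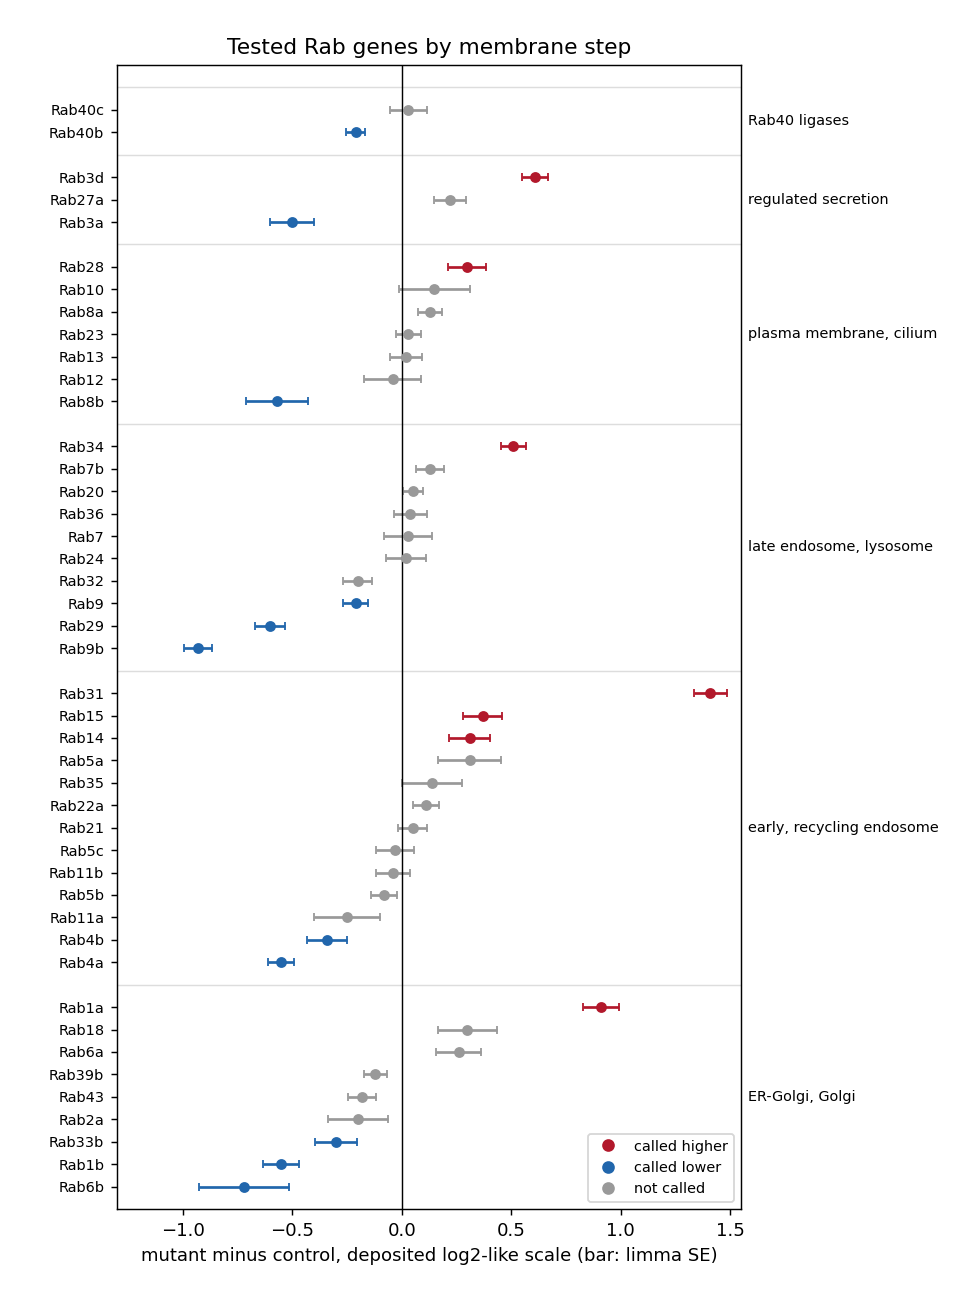
Difference between mutant and control (x axis, log2-like scale, bars show the limma SE) for the 44 tested Rab genes, grouped by the membrane step they serve, with 3 arrays per group. Red points were called higher (7 genes), blue points lower (11 genes) and grey points were not called; Rab31 at 1.41 and Rab9b at -0.93 are the ends of the range.

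The lower count depends most on single arrays. It was 6 without mutant replicate 2, 7 without any of the control replicates, 7 of the 58 genes with all probes tested and 7 with a stricter brightness filter (the 10000 brightest probes), while the higher count was 4 without control replicate 2 or 3. Shares over all tested genes changed too. With any 1 control replicate left out, 25 to 27.3% of Rab genes and 28.1 to 29.9% of all tested genes were called. Without mutant replicate 2 the shares were 25% and 31.6%. With the stricter filter they were 38.9% and 45.6%, so there the share over all tested genes did not fall. For genes with all probes tested they were 22.4% and 19.9%. With all 45281 probes tested, 8 of the 110 Rab probes rose and 7 fell (13.6% called), beside 14.1% of all probes (7.95% higher and 6.15% lower). Without mutant replicate 1, the array that stood apart, 8 Rab genes rose and 15 fell (52.3%), and the share over all tested genes went up as well, to 45.4%. All 18 calls made on the full set were kept there, and 5 were gained. The gains were Rab11a at -0.42 (SE 0.0776, limma adjusted p = 0.0046), Rab2a at -0.34, Rab32 at -0.25, Rab43 at -0.22 and Rab27a at 0.25. Over 12 other settings, which leave aside the 2-fold rule that Rab31 alone passed, 10 of the 18 called genes kept their call wherever they were tested: Rab31, Rab1a, Rab3d and Rab34 among those that rose, and Rab9b, Rab29, Rab1b, Rab4a, Rab3a and Rab40b among those that fell. Centring on the median, 1 of these settings, left the counts over all tested probes as they were, at 3664 higher and 2932 lower, so it was no separate check. Rab31, Rab3d, Rab9b, Rab29, Rab4a and Rab40b each had 1 tested probe. For them the mean of a gene's probes, another of the settings, was the same reading. Rab9b and Rab40b were too dim for the stricter filter. Rab9b, with a mean of 8.32 in mutants and 9.26 in controls, passed the main filter (lowest mean 8.34) through its controls. Its kept call therefore adds no support for its fall.

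The promoters of 4 genes are shown because these genes carry the main contrasts: Rab31 has the largest rise, Rab9b has the largest fall (of a size limited by mutant arrays near the low end of the scale), and Rab1a and Rab1b are close relatives that moved in opposite directions. Each line is the 250 bases before the RefSeq transcription start (build GRCm38.p6), read along the gene's strand, with matches to 4 short motifs in capitals. Rab31 lies at chr17:65772753-65773002 on the minus strand, Rab9b at chrX:136868557-136868806 on the minus strand, Rab1a at chr11:20201162-20201411 on the plus strand and Rab1b at chr19:5106997-5107246 on the minus strand.
Rab31: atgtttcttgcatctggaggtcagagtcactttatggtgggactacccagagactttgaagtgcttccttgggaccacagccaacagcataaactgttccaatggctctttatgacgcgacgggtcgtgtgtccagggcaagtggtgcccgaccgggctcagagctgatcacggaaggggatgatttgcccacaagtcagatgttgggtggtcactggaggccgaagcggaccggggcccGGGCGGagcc
Rab9b: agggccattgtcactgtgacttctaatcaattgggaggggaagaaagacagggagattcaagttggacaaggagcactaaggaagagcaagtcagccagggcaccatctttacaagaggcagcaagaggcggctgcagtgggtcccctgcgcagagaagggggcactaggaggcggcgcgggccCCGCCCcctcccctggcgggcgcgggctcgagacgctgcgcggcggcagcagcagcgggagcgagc
Rab1a: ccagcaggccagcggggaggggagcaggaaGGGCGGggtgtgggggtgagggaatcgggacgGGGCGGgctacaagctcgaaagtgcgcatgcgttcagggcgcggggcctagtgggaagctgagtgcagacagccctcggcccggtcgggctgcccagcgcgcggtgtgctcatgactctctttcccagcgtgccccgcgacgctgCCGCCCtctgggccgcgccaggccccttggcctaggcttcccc
Rab1b: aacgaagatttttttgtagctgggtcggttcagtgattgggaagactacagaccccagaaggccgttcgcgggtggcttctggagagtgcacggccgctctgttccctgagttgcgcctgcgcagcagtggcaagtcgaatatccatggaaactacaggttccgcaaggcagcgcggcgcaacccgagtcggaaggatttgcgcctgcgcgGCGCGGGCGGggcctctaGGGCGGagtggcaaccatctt

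The motifs were searched on both strands in the RefSeq windows, from 250 bases before to 50 after each start, of the 48 Rab genes that the RefSeq table holds. These 48 include genes too dim to test, which the shares of tested genes leave out. GGGCGG, the GC box bound by Sp1, was found in 36 of the 48 (75%), beside 69.3% of the 8296 tested genes with a window and 38.2% of all 27025 genes. All 7 genes that rose had it, as did 8 of the 10 with a window that fell and 16 of the 22 not called. GCGNGGGCG, the element of Egr factors, can overlap a GC box, as it does in Rab1b. It was found in 4 of the 48 (8.33%), in 12.6% of tested genes and in 6.27% of all genes. Of the 7 that rose 0 had it, and of the 10 that fell 1 did, Rab1b. CACGTG, an E-box, was found in 6 genes, all among those not called, in 11.9% of tested genes and in 8.09% of all genes. ACAAAG, a SOX element, was found in 3 of the 48 (6.25%), in 16.2% of tested genes and in 21% of all genes. Among the 60 Rab windows the median GC content was 61.1% and the median number of CpG was 19.5, beside 52.7% and 7 over all 32851 windows. These medians were not taken over the windows of tested genes alone, so they do not set Rab promoters apart from those of other tested genes. A match describes letters in a window and not a bound site.

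The Rabs of the early secretory pathway hold a pair of close relatives that moved in opposite directions. Of 9 tested genes of the endoplasmic reticulum to Golgi route and the Golgi, 1 rose and 3 fell, with a median of -0.18. Rab1a, which moves vesicles from the endoplasmic reticulum to the Golgi, read 11.84, 11.60 and 11.60 in mutants and 10.70, 10.80 and 10.80 in controls. Every mutant array lay above every control, and the gene rose by 0.91 (SE 0.0806, limma adjusted p = 2.85e-04). Rab1b, which serves the same step, read 9.95, 9.91 and 9.87 in mutants and 10.32, 10.44 and 10.61 in controls, and fell by 0.55 (SE 0.081, limma adjusted p = 0.00259). Again the groups did not overlap. The Rab6 genes, which act in traffic within and from the Golgi, differed too: Rab6b fell by 0.72 (SE 0.205, limma adjusted p = 0.0333), from 9.38, 9.94 and 9.07 in controls to 8.73, 8.69 and 8.80 in mutants. The controls were the more scattered group, and the call was lost without mutant replicate 2 (limma adjusted p = 0.0924), mutant replicate 3 (0.0614) or control replicate 1 (0.0797) and with all probes tested (0.0946). Rab6a was not called by its brightest probe, at 0.26 (SE 0.101).

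Rab33b, a Golgi Rab that also takes part in autophagosome formation, fell by 0.30, from 10.67, 10.68 and 10.91 in controls to 10.61, 10.37 and 10.37 in mutants. This was the weakest of the calls (limma adjusted p = 0.0497), with mutant replicate 1 close to the controls. It was lost with the replicate number as a block (0.0784) and in 8 further settings (0.0521 to 0.141). Rab2a, which acts between the Golgi and the endoplasmic reticulum, read 14.21, 13.78 and 13.76 in mutants and 14.05, 14.02 and 14.27 in controls, and was not called at -0.20. Rab18, of the endoplasmic reticulum and lipid droplets, was at 0.30 and not called (SE 0.136), with mutant replicate 1 the highest array at 11.26. Rab43 and Rab39b, at -0.18 and -0.12, were not called.

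Among the early and recycling endosome Rabs, 3 of 13 tested genes rose, 2 fell and 8 were not called, with a median of 0.05. Rab31, also known as Rab22b, moves cargo between the trans-Golgi network and endosomes, and it had the largest change of any member. It read 13.27, 13.19 and 13.06 in mutants against 11.78, 11.69 and 11.83 in controls, a rise of 1.41 (SE 0.0738, limma adjusted p = 3.23e-05). The gap between the groups was wider than the whole spread within either. Its close relative Rab22a, which acts on endosomal recycling, was not called, at 0.11 (SE 0.0595). Rab15, an endocytic Rab, rose by 0.37, from 10.68, 10.49 and 10.55 in controls to 10.98, 10.79 and 11.06 in mutants, a call lost without control replicate 2 (limma adjusted p = 0.0667) or 3 (0.0619). Rab14, of the route between the Golgi and endosomes, rose by 0.31, from 12.49, 12.68 and 12.74 to 12.80, 13.00 and 13.03. That call, at a limma adjusted p of 0.0407, did not hold with either mutant replicate 2 or 3 or any control replicate left out, with all probes tested or with an intensity trend in the fit (0.0566 to 0.122).

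Both Rab4 genes, whose proteins drive fast recycling from early endosomes, fell. Rab4a went from 9.60, 9.58 and 9.63 in controls to 9.00, 9.15 and 9.03 in mutants, a fall of 0.55 (SE 0.0586, limma adjusted p = 6.71e-04). The controls lay within a narrow band and all mutants below it. Rab4b fell by 0.34, from 9.51, 9.41 and 9.50 to 8.94, 9.18 and 9.28, and its call was lost without mutant replicate 2 (limma adjusted p = 0.063) or control replicate 1 (0.0995), 2 (0.063) or 3 (0.0929) and with all probes tested (0.0655). The 3 Rab5 genes, which govern fusion of early endosomes, were not called: Rab5a was at 0.31 (SE 0.144), Rab5b at -0.08 and Rab5c at -0.03. In Rab5a mutant replicate 1, at 12.22, lay well above the other mutants at 11.70 and 11.68. Rab11b, of slow recycling, read 14.08, 13.98 and 13.83 in mutants and 14.08, 13.98 and 13.96 in controls, a difference of -0.04 (SE 0.0776). Rab11a was at -0.25 (SE 0.152), with 9.42 in mutant replicate 1 and 8.92 and 8.88 in the other mutants. Rab35 and Rab21, of recycling and of integrin endocytosis, were at 0.14 and 0.05 and were not called.

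Late endosome, lysosome and autophagy Rabs gave 1 rise and 3 falls among 10 tested genes, with a median of 0.02. Rab9b, of the route from late endosomes back to the trans-Golgi network, had the largest fall of the family, 0.93 (SE 0.0648, limma adjusted p = 1.04e-04). It read 9.20, 9.20 and 9.36 in controls and 8.30, 8.28 and 8.38 in mutants. The mutant arrays sat near 8.34, the lowest mean among tested probes, so the gene passed the brightness filter through its controls and the size of its fall is limited by the low end of the scale. Rab9, its partner in the same step, fell by 0.21, from 10.02, 9.97 and 9.94 to 9.81, 9.68 and 9.80. That call (limma adjusted p = 0.0295) was lost with the replicate block (0.0509) and in 6 further settings (0.0553 to 0.106). Rab29, which recruits the kinase Lrrk2 to membranes, went from 10.42, 10.31 and 10.27 in controls to 9.63, 9.80 and 9.78 in mutants, a fall of 0.60 (SE 0.0688, limma adjusted p = 9.06e-04). Rab34, which acts in lysosome positioning and the building of cilia, rose by 0.51 (SE 0.0584), from 11.50, 11.58 and 11.54 to 12.13, 12.05 and 11.98.

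Rab7, the central Rab of late endosomes and lysosomes, whose human gene is mutated in a form of Charcot-Marie-Tooth neuropathy, was not called. It stood at 12.27, 11.91 and 11.92 in mutants and 11.98, 11.92 and 12.10 in controls, a difference of 0.03 (SE 0.109). Rab7b was at 0.13 and Rab24, an autophagy Rab, at 0.02. Rab32, of lysosome-related organelles, read 11.13, 10.98 and 10.94 in mutants and 11.22, 11.17 and 11.24 in controls. The groups did not overlap, but the difference of -0.20 missed the threshold (limma adjusted p = 0.0571). Rab36 and Rab20 were at 0.04 and 0.05, close to the dim end of the scale.

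Of 7 tested Rabs of transport to the plasma membrane and the cilium, 1 rose, 1 fell and 5 were not called, with a median of 0.03. Rab8b, which carries cargo from the trans-Golgi network to the surface, read 12.92, 13.06 and 13.24 in controls and 12.80, 12.38 and 12.34 in mutants, and fell by 0.57 (SE 0.142, limma adjusted p = 0.0215). Mutant replicate 1 was nearest to the controls. The call was lost without mutant replicate 2 (0.0721) or 3 (0.0556) or control replicate 2 (0.0657) or 3 (0.0766) and with all probes tested (0.0604), while a further Rab8b probe also fell, by 0.59. Rab8a, its relative in the same step, stood at 12.05, 11.96 and 12.05 in mutants and 11.87, 11.93 and 11.84 in controls, and was not called at 0.13 (SE 0.0539). Rab28, a Rab linked to cilia, rose by 0.30, from 12.43, 12.51 and 12.39 to 12.92, 12.66 and 12.65. At a limma adjusted p of 0.0356, this call did not hold with mutant replicate 2 or any control replicate left out, with all probes tested, with an intensity trend or with the mean of its probes (0.0548 to 0.192). Rab10, Rab12, Rab13 and Rab23, a brake on Hedgehog signalling, ran from -0.04 (Rab12) to 0.15 (Rab10).

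**Figure D2:**
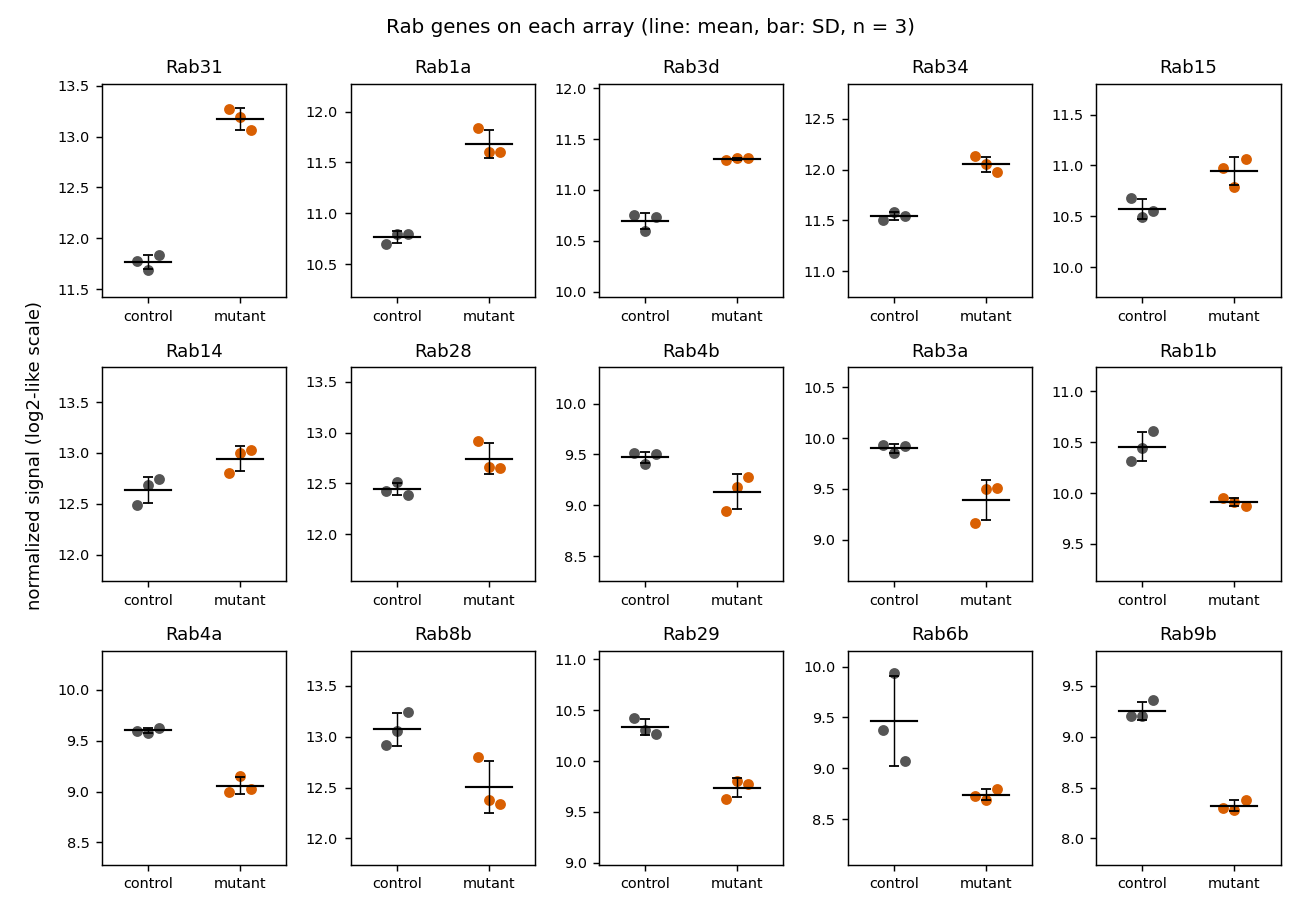
Normalized signal (y axis, log2-like scale) on each control (grey) and mutant (orange) array for the 7 Rab genes that rose and the 8 with the largest fall, each panel spanning the same height, with lines at the mean and bars of 1 SD (n = 3). The groups are apart in every panel, widest in Rab31 (13.06 to 13.27 in mutants, 11.69 to 11.83 in controls), and Rab6b shows scattered controls (9.07 to 9.94).

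Regulated secretion Rabs were mostly dim. Only 3 of the 9 on the array were tested. Rab3d, a Rab of secretory granules, rose by 0.61 (SE 0.0581, limma adjusted p = 3.8e-04), from 10.75, 10.60 and 10.73 in controls to 11.29, 11.31 and 11.31 in mutants. Rab3a, the Rab of synaptic vesicles, moved the other way, from 9.93, 9.85 and 9.92 to 9.17, 9.50 and 9.51, a fall of 0.50 (SE 0.0995, limma adjusted p = 0.00853). The mutants were again below every control, with replicate 1 the lowest. Of 7 neuron markers on the array, 5 were too dim to test and the others, Nefm and Stmn2, were not called, with a mean level of 8.58 to 8.78 in mutants and 8.62 to 8.71 in controls. Rab27a, which docks melanosomes and secretory granules, was not called at 0.22 (SE 0.0726), though its mutants at 8.80, 8.98 and 8.82 lay above its controls at 8.74, 8.65 and 8.57. Beside it, 4 of 5 tested mast cell markers rose, where 22% of all tested genes were called higher. The mean level of the 5 ran from 9.67 to 10.08 in mutants and from 9.13 to 9.24 in controls. The other tested marker, Kit, was not called at 0.06, and Ms4a2, a defining gene of that list, was too dim to test. Of 6 melanocyte markers on the array, 4 were too dim to test, Dct rose by 1.51 and Pmel fell by 0.74. Pmel was at 8.28 in mutants and 9.02 in controls, so it passed the brightness filter through its controls. The mean level of Dct and Pmel ran from 9.20 to 9.33 in mutants and from 8.80 to 8.93 in controls, an average of moves in opposite directions. The part of mast cells and melanocytes in these values was not tested.

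The Rab40 proteins carry a SOCS box and serve cullin ubiquitin ligases. Rab40b read 8.57, 8.59 and 8.59 in controls and 8.39, 8.37 and 8.37 in mutants, a fall of 0.21 (SE 0.0449, limma adjusted p = 0.0124) near the dim end of the scale. Rab40c, with a mean of 11.12 in mutants and 11.08 in controls, was not called. The other 14 members were too dim to test: Rab2b, Rab3b, Rab3c, Rab17, Rab19, Rab25, Rab26, Rab27b, Rab30, Rab33a, Rab37, Rab39, Rab42 and Rab44 ran from 8.06 to 8.43 over all their probes and arrays, around the median of 8.24 of each array. Rab17 and Rab25 are Rabs of polarised epithelia, and Rab3b, Rab3c and Rab27b of secretory and neuronal cells. At this level a change could not be measured well, and a low signal does not show that a gene is silent.

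Close relatives were set beside each other in 12 pairs, chosen with earlier results of these data known. In 2 pairs, Rab1a with Rab1b and Rab3d with Rab3a, the members were called in opposite directions. Over all tested genes, 22% were called higher and 17.6% lower. How often other gene pairs were called in opposite directions was not counted. The difference between the pair's members changed by 1.46 (SE 0.0867) for Rab1a over Rab1b and by 1.12 (SE 0.109) for Rab3d over Rab3a. It changed by 1.29 (SE 0.106) for Rab31 over Rab22a, 0.99 (SE 0.278) for Rab6a over Rab6b and 0.70 (SE 0.171) for Rab8a over Rab8b. These values rest on each gene's brightest probe: with the mean of its probes Rab1a was at 0.47 and Rab1b at -0.37, and Rab3d was at 0.61 and Rab3a at -0.32. Rab22a was at 0.03 that way, and Rab6a at 0.21, with its next brightest probe at -0.08. The Rab6b call was lost in 4 settings. For Rab9 with Rab9b and Rab40c with Rab40b no size is given, since Rab9b and Rab40b were close to the lowest measurable signal in mutants. An exact 2-sided permutation test over the arrays gave p = 0.1 for 9 of the 12 pairs, these 2 included (0.133 after Benjamini-Hochberg adjustment), the smallest that 3 arrays against 3 allow, so this test could not reach 0.05. The 3 pairs above it were Rab7 with Rab7b (exact p = 0.5), and Rab11a with Rab11b and Rab5a with Rab5c (exact p = 0.3 each). Groups that do not overlap always give the smallest p in this test. Among all tested genes, taken singly, 55.2% had such groups.

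Of the 44 tested genes, 19 were read by more than 1 tested probe. Every probe was called in 1 gene, Rab8b, none was called in 10, and 8 had both called and uncalled probes. In Rab1a, Rab1b, Rab3a, Rab9 and Rab14 the brightest probe was called and the dimmer ones were not, with values of the same sign. Rab1a's dim probe, at 8.62, 8.58 and 8.68 in mutants and 8.61, 8.59 and 8.56 in controls, was at 0.04, and that of Rab3a was at -0.13. Rab34 was called by its brightest probe, and its others were at 0.21 (SE 0.0896) and 0.18 (SE 0.0889). Rab28 had probes at 0.30, 0.13 and -0.02. Rab6a was the reverse case. Its brightest probe was not called and neither was the next, at -0.08 (SE 0.115), yet another, at 9.60, 9.57 and 9.70 in mutants and 9.22, 9.09 and 9.26 in controls, rose by 0.43 (limma adjusted p = 0.00332), and the dimmest rose by 0.21 (0.0227), a call lost without mutant replicate 3 or control replicate 1 or 2. Fitting the mean of a gene's tested probes moved Rab1a to 0.47, Rab34 to 0.30, Rab14 to 0.17, Rab28 to 0.14 and Rab3a to -0.32, and of these 5 genes Rab28 alone lost its call. Over all 71 tested Rab probes, limma called 9 higher and 12 lower (29.6% in all), where 19.9% of all tested probes were called higher and 15.9% lower (35.8% in all). Leaving out single arrays gave 5 higher without control replicate 2, and 6 lower without mutant replicate 2 and 7 without control replicate 1 or 3. In each of these settings 18.3% of Rab probes were called, beside 25 to 28.1% of all tested probes. Which transcripts the probes read was not analysed here.

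**Figure D3:**
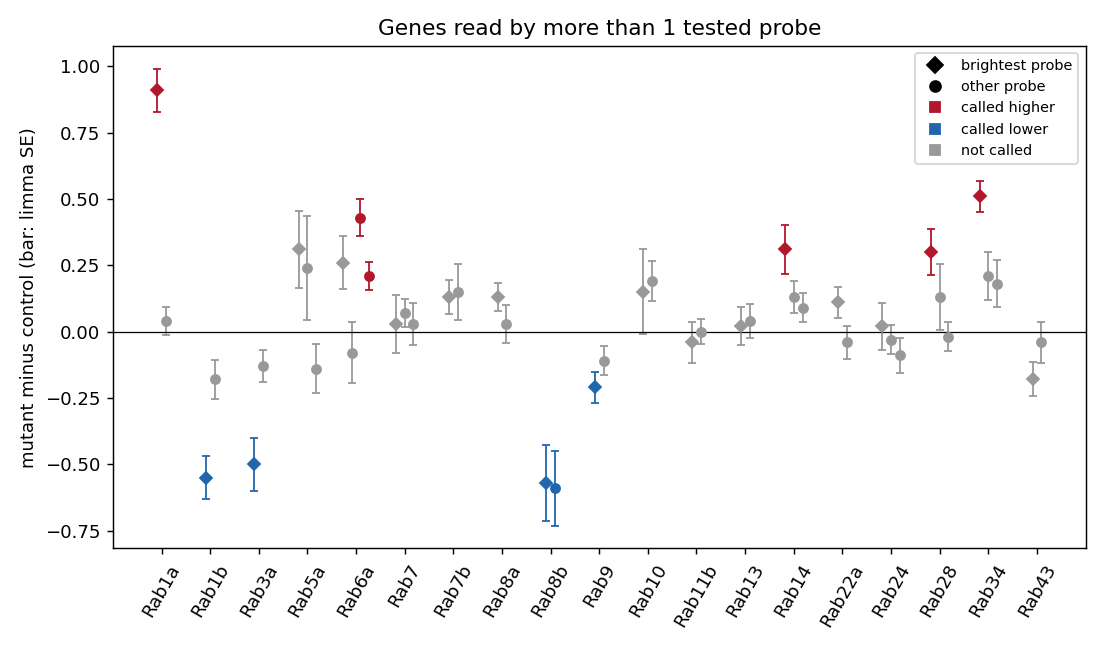
Difference between mutant and control (y axis, log2-like scale, bars show the limma SE) for every tested probe of the 19 Rab genes read by more than 1, ordered within a gene from brightest (diamond) to dimmest. Both Rab8b probes were called lower, and the probes of Rab6a run from -0.08 to 0.43.

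Calls were also set beside brightness, on 7 to 11 Rab genes a range, and the shares were close to those of all tested genes except from 11 to 12. Under a mean of 9 over the 6 arrays, 2 of 8 Rab genes were called (25%), beside 25.4% of all tested genes in that range. From 9 to 10 they were 5 of 11 (45.5%) and 42.8%. Between 10 and 11 the shares were 5 of 10 (50%) and 49.4%, and at 12 or more 4 of 8 (50%) and 49.2%. In the range from 11 to 12 they were 2 of 7 (28.6%) and 51.4%, on few genes. By range, dimmest first, the median size of a difference was 0.0831, 0.248, 0.303, 0.197 and 0.248 for Rab genes. Over all tested genes it was 0.105, 0.226, 0.309, 0.347 and 0.386. The Rab value was the larger only from 9 to 10, and it lay furthest below from 11 up. That gap rests on few genes and was not tested.

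**Figure D4:**
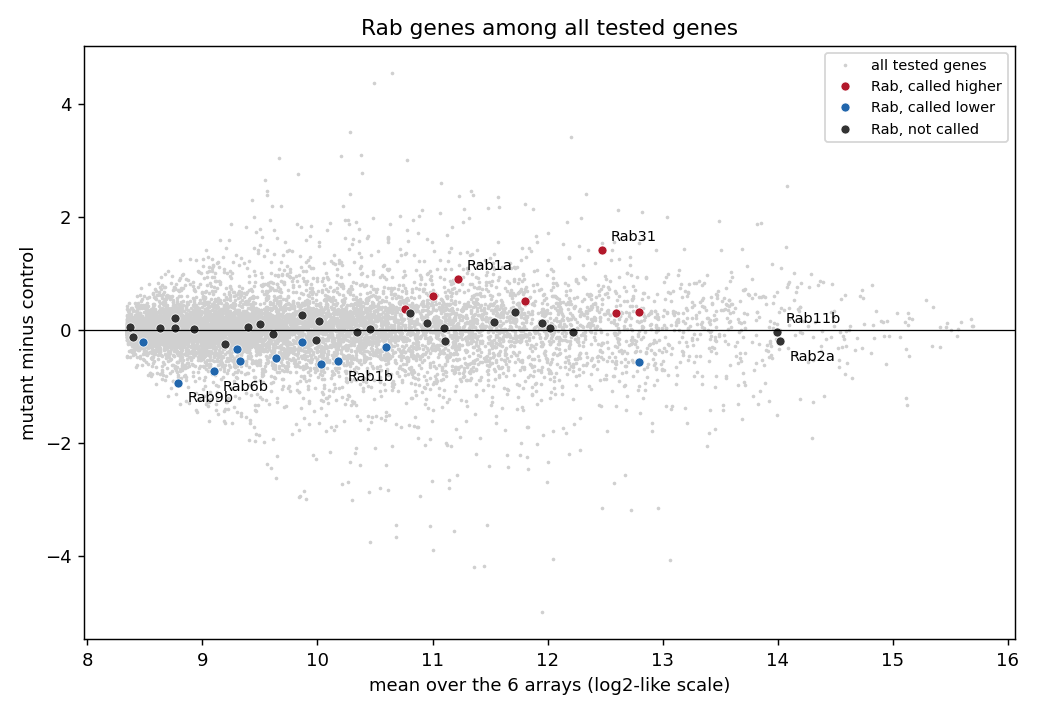
Mean signal over the 6 arrays (x axis) against the difference between mutant and control (y axis), both on the log2-like scale, for all 10273 tested genes (light grey) and the 44 Rab genes (coloured by call). The Rab genes lie between -0.93 and 1.41, inside the range of the other genes, and the rightmost points are Rab2a at -0.20 and Rab11b at -0.04.

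The regulators and effectors of Rab proteins were counted from lists by role. Of 105 tested genes, 26 rose and 18 fell (41.9% called, beside 39.6% of all tested genes), with a median of 0.01. Without control replicate 1 or 3 the falls were 10 and 11. Of 27 exchange factors, 7 rose and 3 fell, with a median of 0.12. Dennd2a, an exchange factor for Rab9, was at 10.95 ± 0.112 in mutants and 9.81 ± 0.189 in controls (SD, 3 arrays each), a rise of 1.14, while Rab9b and Rab9 fell. Dennd6a, which activates Rab14, rose by 0.80 (SE 0.0923), beside the rise of 0.31 in Rab14. Sbf1, a myotubularin-related protein with exchange activity toward Rab28, rose by 0.71 (SE 0.081), and its relative Sbf2, whose human gene is mutated in a demyelinating neuropathy, fell by 0.34 (SE 0.0709). Rin2 and Rin3, exchange factors of the Rab5 group, rose by 0.61 and 0.55. Gapvd1, which acts on Rab5 and Rab31, rose by 0.35, a call lost without any control replicate (limma adjusted p 0.0647 to 0.0746) and with all probes tested (0.0504). Rabgef1, the Rab5 exchange factor Rabex-5, fell by 0.64.

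Among 29 GTPase-activating proteins, 8 rose and 5 fell, with a median of 0.03. Sgsm3 rose by 0.79 (SE 0.0627) and Tbc1d10a, which acts on Rab27a and Rab35, by 0.75. Tbc1d22a, Evi5l and Usp6nl fell by 0.80, 0.76 and 0.71. Of 8 factors of prenylation and recycling, 2 rose and 2 fell. Yipf1, a Golgi membrane protein, fell by 0.71 (-0.36 with the mean of its probes). The subunits of the geranylgeranyl transferase parted: Rabggtb rose by 0.35 (lost without control replicate 1, limma adjusted p = 0.0536) and Rabggta fell by 0.28 (lost without any of the control replicates, 0.0597 to 0.0851).

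Effectors gave 9 rises and 8 falls among 41 tested genes, with a median of -0.02. Sytl2, a synaptotagmin-like protein that binds Rab27, was at 10.80 ± 0.181 in mutants and 9.47 ± 0.189 in controls, a rise of 1.33 (SE 0.125), and the motor Myo5a rose by 0.70. Micall2, an effector of Rab8 and Rab13, rose by 0.78, and the Golgi stacking protein Gorasp2 by 0.51. Osbpl1a, a sterol-binding effector of Rab7 on late endosomes, had the largest fall of these lists, from 10.40 ± 0.143 to 9.05 ± 0.0502, a difference of -1.35 (SE 0.081, limma adjusted p = 5.87e-05). With the mean of its probes Osbpl1a was at -0.71. Rab7 itself was not called. Rilp, another Rab7 effector, fell by 0.23 and its relatives Rilpl1 and Rilpl2 by 0.45 and 0.34. The Rilp call was lost without mutant replicate 1 or 2 or any control replicate, with all probes tested and with the replicate block (0.0533 to 0.123), and the Rilpl2 call without mutant replicate 3 or control replicate 1 or 3 and with the block (0.0543 to 0.0837). Rabep2, Rabep1 and Rbsn, effectors that act with Rab4 and Rab5 on early endosomes, fell by 0.28, 0.25 and 0.16. Appl1, an early endosome effector of Rab5, rose by 0.46, a call lost without control replicate 1 (limma adjusted p = 0.0691) or 3 (0.0544), and Eea1 and Rufy1, which also act there, were not called, at 0.11 and 0.06. Rabep2 kept its call wherever it was tested, while Rabep1 and Rbsn lost theirs in 7 and 8 of them.

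**Figure D5:**
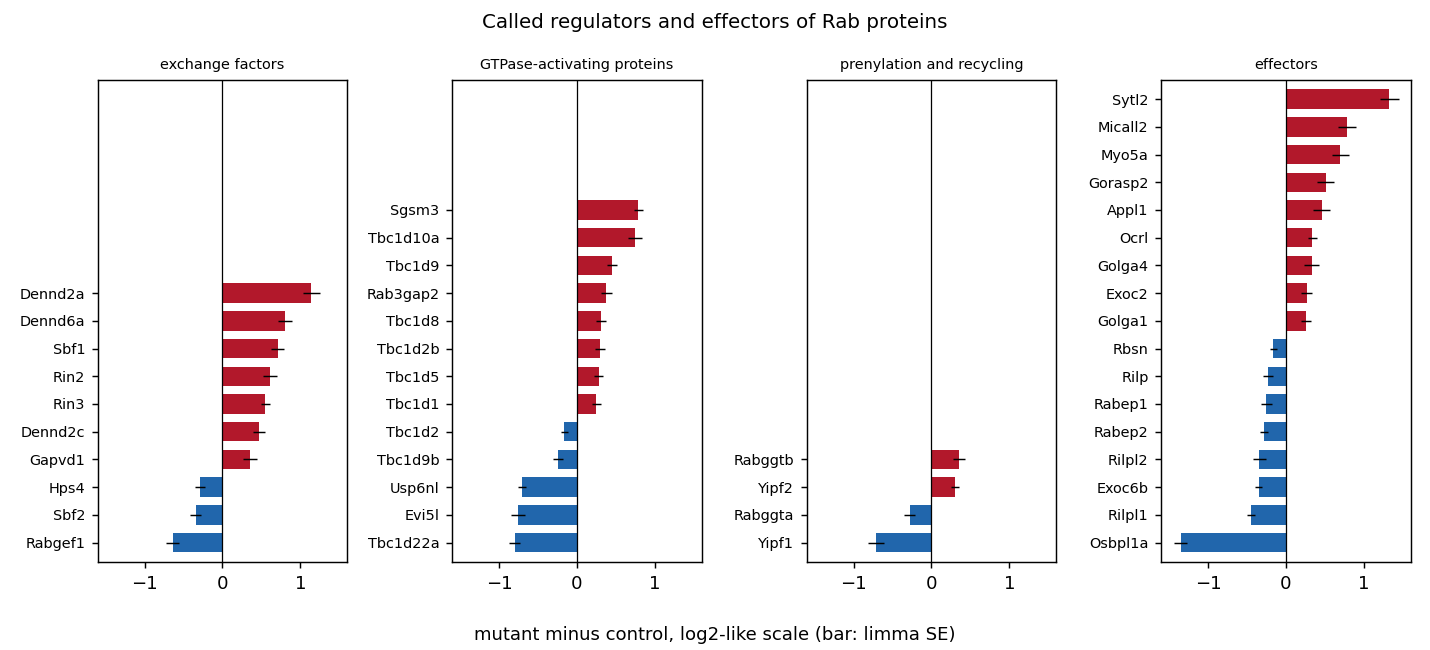
Difference between mutant and control (x axis, log2-like scale, bars show the limma SE) for the called regulators and effectors of Rab proteins, in 4 panels by role, red for higher and blue for lower in mutants. Sytl2 at 1.33 and Dennd2a at 1.14 lead the rises and Osbpl1a at -1.35 the falls.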

How the data were processed

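Illumina Mouse WG-6 bead arrays measured total RNA of 6 samples, which the labels call sciatic nerve, although the design text speaks of cultured cells. The deposited values are normalized log2-scale signals per the labels' design text, which names RMA and limma. The submitters' processing notes name lumi 1.8.3, and whether the scale is plain log2 or lumi's variance-stabilising transform is not settled, so a difference among dim probes may understate the log2 fold change. No background correction is named. Tests used the 18420 brightest probes by mean over the arrays, as many as the design text says its present calls kept, and 2-sided limma fits (version 3.58.1 under R 4.3.3, lmFit with eBayes, 4 residual and 2.63 prior degrees of freedom). Probes were named from the platform annotation: 34885 have 1 symbol, 18 several and 10378 none. Promoter sequences came from RefSeq (GRCm38.p6). The limma fit alone was tested on simulated data, with independent noise of the controls' spread in both groups, so the more scattered mutant arrays were not imitated. With 3 arrays a group, precision is limited by their number. The titles number the replicates 1 to 3 in both groups. Deviations from the group means correlated at 0.165, 0.155 and 0.224 between arrays of the same number, and at -0.157 to 0.0283 between the others. A pairing by number therefore rests on the data and is not stated in the labels. The main fits, which gave every call, were unpaired, and the pairing entered only through the replicate block. The alternatives were no filter, a filter at 10000 probes, the replicate block, leaving out each array, an intensity trend, centring on the median, the mean of a gene's probes and the 2-fold rule. Members, role lists and pairs were chosen with earlier results of these data known. Values on each array are given for the leading called members, opposite relatives and genes whose probes disagree, and up to 16 called regulators or effectors with the largest change were to be named; further ones named were chosen after their values were seen.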

Additional observations from a re-analysis of the deposited data

Results flagged for a closer look

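A Rab44 probe left out by the brightness filter rose when all 45281 probes were tested, of which 14.1% were called. It read 8.39, 8.39 and 8.43 in mutants against 8.25, 8.23 and 8.14 in controls. The rise was 0.20 (SE 0.0351, limma adjusted p = 0.0175), with all arrays close to the array median of 8.24. Another Rab44 probe was at -0.03 and not called. Rab44 is a large Rab known from mast cells. Of 5 tested mast cell markers 4 also rose, while Kit was not called at 0.06, and 22% of all tested genes were called higher. The part of mast cells in the Rab44 value was not tested. This Rab44 probe was the single call among 39 untested Rab probes.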

How the results depend on the processing

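Of the 7 higher and 11 lower Rab genes, leaving out each array in turn gave 4 to 8 higher and 6 to 15 lower. Among Rab probes the ranges were 5 to 12 higher and 6 to 17 lower, among regulators and effectors 20 to 28 and 10 to 22, and among all tested probes 2557 to 4044 and 2041 to 3458. With no filter, 7 Rab genes and 7 Rab probes were lower. With the stricter filter, which tests fewer genes, 7 Rab genes and 1937 probes in all were lower. Under the 2-fold rule, 1 Rab gene was higher and 0 lower, 1 Rab probe higher and 0 lower, 2 regulators or effectors higher and 1 lower, and 378 probes in all higher and 450 lower. With the replicate block as a pairing of the samples, 16 of the 18 called Rab genes kept their call and 0 were gained; Rab33b and Rab9 lost theirs, and no count moved by over 1.5 times. An intensity trend kept 14 and added 2. No called member, and no called regulator or effector, reversed its direction in any setting run. For the 18 called members this says little. Their groups did not overlap, so leaving out an array could not reverse them. Of the other settings, only the mean of a gene's probes could change a difference. Differences among probes near 8.34 are limited by the low end of the scale.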
